A study of Mus musculus with 6 samples.

Results

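The genes described here are those that make up, load and switch on the major histocompatibility complex (MHC) class II machinery: H2-Aa, H2-Ab1, H2-Eb1, H2-DMa, H2-DMb1, H2-Oa, H2-Ob, Cd74, Ciita and Ctss. They were taken as a fixed list by name, and every probe whose RefSeq accession mapped to 1 of them was used. This gave 10 genes of the 23462 that could be named on the array, and 16 probes of 56605. The signals came from whole colon RNA of 6 male mice, 1 single-colour Agilent array per animal: 3 controls and 3 animals whose labels read Islr knockout. By the sample source, all 6 animals had drunk dextran sulfate sodium (DSS), which damages the colon lining, at 3.5% for 5 days and then had 1 day without it, although the separate treatment field reads as no treatment. No untreated animals were measured, so both genotypes are seen in the same injured and recovering state. The labels give no strain, age or MHC haplotype, and do not say which cells lack Islr, a gene for a secreted leucine-rich repeat protein of mesenchymal cells.

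MHC class II molecules are pairs of an alpha and a beta chain that carry peptides from endocytosed proteins to the cell surface, where CD4+ T cells read them. A new pair is held by the invariant chain Cd74, which the protease cathepsin S (Ctss) trims to a short fragment. The H2-DM pair swaps that fragment for peptide, and the H2-O pair, known mainly from B cells, restrains H2-DM. The coactivator Ciita does not bind DNA itself and is recruited to class II promoters by factors sitting on a conserved upstream module, in which an X box, bound by the RFX complex, precedes a Y box, bound by NF-Y. In the colon the constitutive users of this machinery are B cells, dendritic cells and macrophages, and epithelium can gain it under interferon gamma.

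The promoters were searched for this module, and those of the classical, H2-DM and H2-O chains that held part of it are shown before the signals. RefSeq promoters (GRCm38.p6) were at hand for 7 of the 10 members; H2-Ab1, Cd74 and Ciita were not among them. Both strands of the 250 bases before and the 50 bases after each annotated start were searched for the X box core (AG, any 2 bases, AC, any 3 bases, TG), the Y box CTGATTGG and its core ATTGG, which lies inside the full Y box. The lines below give the 150 bases directly before the start, 5′ to 3′ on the gene's own strand, with X box core matches, full Y boxes and, where the full box was absent, the Y box core in capitals.
H2-Eb1, chr17:34305717-34305866, plus strand: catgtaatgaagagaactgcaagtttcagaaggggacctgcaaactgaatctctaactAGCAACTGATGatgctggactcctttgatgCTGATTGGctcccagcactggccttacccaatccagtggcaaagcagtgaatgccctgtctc
H2-DMb1, chr17:34153041-34153190, plus strand: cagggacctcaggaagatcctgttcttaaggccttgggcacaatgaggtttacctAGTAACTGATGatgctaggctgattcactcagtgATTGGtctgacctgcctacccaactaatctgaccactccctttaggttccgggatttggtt
H2-Ob, chr17:34238755-34238904, plus strand: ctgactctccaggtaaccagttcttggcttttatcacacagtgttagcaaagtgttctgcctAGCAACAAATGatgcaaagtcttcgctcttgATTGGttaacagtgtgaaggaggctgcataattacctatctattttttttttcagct
H2-Oa, chr17:34092229-34092378, plus strand: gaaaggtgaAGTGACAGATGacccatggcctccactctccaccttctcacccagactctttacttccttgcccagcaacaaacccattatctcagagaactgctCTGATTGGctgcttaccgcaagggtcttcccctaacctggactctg
H2-Aa, chr17:34287824-34287973, minus strand: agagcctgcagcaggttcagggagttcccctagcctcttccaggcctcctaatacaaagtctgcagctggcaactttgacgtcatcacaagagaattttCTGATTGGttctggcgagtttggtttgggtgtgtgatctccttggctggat

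The 5 printed promoters held a Y box core on their own strand within 61 bases of the start. In H2-Eb1, H2-DMb1 and H2-Ob an X box core preceded it by 33, 34 and 31 bases, counted between first bases, the X match beginning 92, 95 and 88 bases before the start. An X core followed on the same strand by a Y core under 60 bases away was found in 0.791% of 32851 promoters. In H2-Oa the X match began 141 bases and the Y core 43 bases before the start, a spacing of 98 bases. H2-Aa had the full Y box 51 bases before the start and no match to these X box letters. Over all promoters the X core was present in 14.8%, the full Y box in 4.1% and the Y core in 37.4%, so a Y core alone is common. Of the 2 annotated H2-DMa promoters, 1 held a Y core 198 bases before its start and the other held none of these letters. Ctss, the protease, had neither box but carried an interferon-response-like match (GAAA, any 2 bases, GAAA) beginning 21 bases before the start, a pattern found in 3.44% of promoters. The interferon gamma activated pattern TTCNNNGAA, present in 8.3% of promoters, was in none of the 7 members' promoters. These matches describe letters in a window and do not show that a factor was bound.

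Signals are given as log2 of the processed intensity relative to the 75th percentile of the same array, so 0 is a rather bright spot and +1 is 2-fold brighter than that percentile. Levels of different probes are not compared, since probes differ in how strongly they hybridise. The 75th percentile was 4911 to 7111 intensity units, each array had 69.4% to 75.4% of its spots well above background, and no spot was saturated. Outlier spots, which Feature Extraction marks for uneven pixels or as outliers among replicate spots, were left out of the main fit. They made up 13.6% and 16.0% of control replicate 1 and knockout replicate 1, and 3.26% to 9.05% of the other 4 arrays. Islr was lower in the knockouts by -2.44 on the log2 scale (SE 0.21, limma adjusted p = 0.0171). The tissue label could be checked against markers: all 10 epithelial, all 6 smooth muscle and all 6 endothelial marker genes were well above background on all 6 arrays, so the RNA came from more than 1 layer of the wall. The design text mentions a flow step without naming a gate. The epithelial marker mean of control replicate 2 was 0.46, against 2.0 to 3.07 on the other arrays. The control arrays shared slide row 1 and the knockout arrays row 2, and row and genotype cannot be told apart.

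Transcripts of the class II machinery were measured well above background in the recovering colon of both genotypes, and none of the members differed between them beyond the spread of the animals. All 10 genes had a probe well above background on all 6 arrays, and 15 of the 16 probes were; the exception, a H2-DMa probe for a predicted transcript, passed on 1 array only and is not described further. In limma at an adjusted p under 0.05, 0 of the 7 members that could be tested differed, and 0 of their 11 probes; over the whole array 3.97% of 35351 tested probes did (1.55% higher and 2.42% lower in the knockouts). At that share fewer than 1 of 11 probes would be called, so the count itself sets the members apart from nothing. No member probe reached an unadjusted p under 0.05 either, and the lowest adjusted p was 0.315. H2-Aa, H2-Eb1 and Ctss had too few unmarked spots for the main fit. With marked spots kept, all 10 members and 15 probes were tested, 0 were called (over the array 4.85% of 40172 probes, 1.96% higher and 2.89% lower), and the lowest adjusted p was 0.299.

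The genotypes overlapped at every one of the 15 probes, whereas 34.9% of the probes tested over the array had all 3 knockouts on 1 side of all 3 controls (17.3% above and 17.6% below). The 15 probes belong to only 10 genes read on the same 6 arrays, so they are not separate observations. The median difference of the members, knockout minus control, was 0.14 on the log2 scale in the main fit, with 4 genes higher and 3 lower, and 0.23 with marked spots kept, with 8 higher and 2 lower. The median over all tested probes was 0.00 and 0.01. The exact two-sided permutation p of single member probes ran from 0.3 to 0.9, where 3 against 3 animals cannot go below 0.1.

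**Figure D1:**
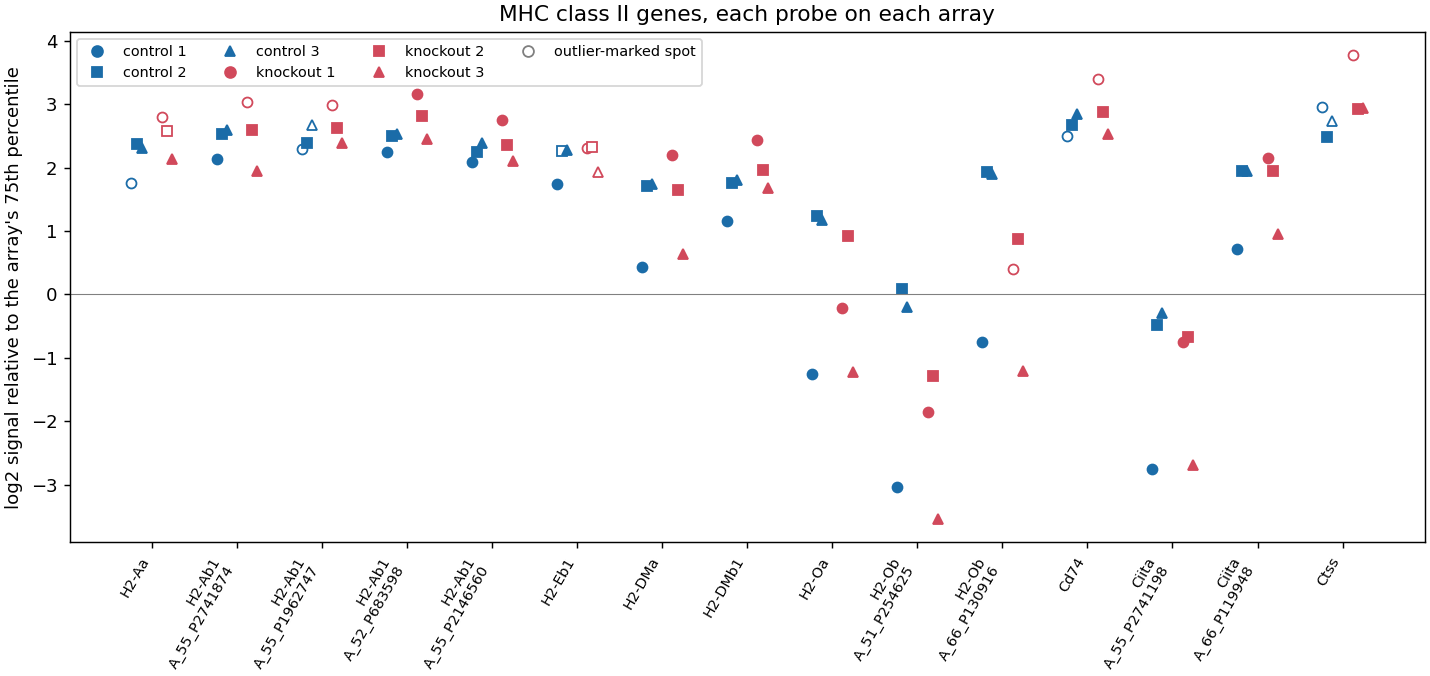
Log2 signal over that array's 75th percentile (vertical axis) of the 15 class II probes that were well above background on all 6 arrays; blue, controls; red, knockouts; the marker shape gives the replicate, and open symbols are spots marked as outliers. Red and blue symbols interleave at every probe; the H2-Oa, H2-Ob and dimmer Ciita probes are drawn out over 2.46 to 3.63 log2 units and the H2-Eb1 probe over 0.59.

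The classical presenting molecules, I-A and I-E, were read by probes that lay above the 75th percentile on every array. H2-Aa, the alpha chain of the I-A molecule, read 1.75, 2.37 and 2.31 in controls 1, 2 and 3 and 2.81, 2.57 and 2.14 in knockouts 1, 2 and 3. Control 1 was the lowest and knockout 1 the highest array, and the groups overlapped. The spots of control 1 and knockouts 1 and 2 were marked, so H2-Aa was tested only with them kept: the difference was 0.36 (SE 0.25, 95% interval -0.24 to 0.96, limma adjusted p = 0.396).

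H2-Ab1, the I-A beta chain that pairs with H2-Aa, was the best measured member, with 4 probes. Its brightest fully unmarked probe (A_52_P683598) read 2.25, 2.50 and 2.53 in controls and 3.17, 2.81 and 2.44 in knockouts. Knockouts 1 and 2 were above all controls and knockout 3 was below controls 2 and 3, with means of 2.43 ± 0.15 and 2.81 ± 0.36 (SD, n = 3 each). The difference was 0.38 (SE 0.22, 95% interval -0.15 to 0.90, limma adjusted p = 0.315). The other 3 H2-Ab1 probes gave smaller values: 0.16 (SE 0.21, adjusted p = 0.649 in limma) for A_55_P2146560, and 0.10 and 0.21 with marked spots kept for A_55_P2741874 and A_55_P1962747. Without the marked spot of knockout 1, A_55_P2741874 turned to -0.15 (SE 0.27, limma adjusted p = 0.758). The 4 probes thus did not share a sign in the main fit, and each of their intervals held 0.

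The difference between the I-A partners was steadier than either chain. H2-Aa minus H2-Ab1 varied by 0.38 over the 6 arrays, where H2-Aa alone varied by 1.06 and H2-Ab1 by 0.91. Its control mean was -0.28 ± 0.20 and its knockout mean -0.30 ± 0.06 (SD, n = 3 each, exact permutation p = 0.9).

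H2-Eb1, the beta chain of the I-E molecule, was the member with the narrowest range of all representing probes. It read 1.74, 2.27 and 2.27 in controls and 2.31, 2.33 and 1.94 in knockouts. Control 1 and knockout 3 were the lowest arrays and the other 4 were nearly level. All 3 knockout spots and that of control 2 were marked, and with them kept the difference was 0.10 (SE 0.22, 95% interval -0.41 to 0.61, limma adjusted p = 0.795).

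Cd74, the invariant chain, read 2.51, 2.67 and 2.85 in controls and 3.39, 2.87 and 2.53 in knockouts. Knockout 1 was the highest array and its spot was marked, as was that of control 1, the lowest. With both spots left out the means were 2.76 ± 0.13 and 2.70 ± 0.24 (SD, n = 2 each), a difference of -0.06 (SE 0.23, 95% interval -0.66 to 0.54, limma adjusted p = 0.893). With both kept the sign turned, to 0.26 (SE 0.25, limma adjusted p = 0.538).

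Ctss, which cuts the invariant chain and is the only member that is not itself an MHC molecule, its chaperone or its transcriptional switch, had a different order of arrays. It read 2.96, 2.48 and 2.74 in controls and 3.77, 2.93 and 2.95 in knockouts. Controls 2 and 3 were the lowest arrays, knockout 1 was far the highest, and control 1 overlapped the knockouts. With the 3 marked spots (controls 1 and 3, knockout 1) kept, the difference was 0.49 (SE 0.28, 95% interval -0.17 to 1.14, limma adjusted p = 0.299).

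The H2-DM pair edits the peptide cargo. H2-DMa, its alpha chain, read 0.43, 1.72 and 1.74 in controls and 2.20, 1.66 and 0.63 in knockouts. Within each genotype 1 animal was far below the others, control 1 and knockout 3, and the means of 1.30 ± 0.75 and 1.50 ± 0.80 (SD, n = 3 each) differed by 0.20 (SE 0.51, 95% interval -1.01 to 1.41, limma adjusted p = 0.828). H2-DMb1, the beta chain, read 1.17, 1.76 and 1.80 in controls and 2.44, 1.96 and 1.67 in knockouts. Control 1 was again the lowest and knockout 3 the second lowest, but with smaller drops. Its means were 1.58 ± 0.36 and 2.02 ± 0.39 (SD, n = 3 each), a difference of 0.45 (SE 0.27, 95% interval -0.20 to 1.09, limma adjusted p = 0.330). H2-DMa minus H2-DMb1 was lowest in the same 2 animals, at -0.74 in control 1 and -1.04 in knockout 3 against -0.30 to -0.04 in the other 4, so the alpha chain fell further than the beta chain there. The group means of that difference, -0.28 ± 0.39 and -0.53 ± 0.45 (SD, n = 3 each), gave an exact permutation p of 0.5.

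H2-Oa and H2-Ob, the chains of the H2-DM inhibitor, had the widest spread between animals. H2-Oa read -1.26, 1.24 and 1.18 in controls and -0.21, 0.92 and -1.22 in knockouts. Each genotype held animals at both ends: control 1 and knockout 3 were nearly level at the bottom, and controls 2 and 3 and knockout 2 lay at the top. The range was 5.65-fold among controls and 4.42-fold among knockouts. Means of 0.39 ± 1.42 and -0.17 ± 1.07 (SD, n = 3 each) differed by -0.56 (SE 0.81, 95% interval -2.49 to 1.37, limma adjusted p = 0.691).

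H2-Ob was read by 2 probes. At the brighter one (A_66_P130916) controls gave -0.76, 1.93 and 1.90, and knockouts 0.41, 0.87 and -1.20. The other (A_51_P254625) gave -3.04, 0.09 and -0.20 in controls and -1.85, -1.28 and -3.54 in knockouts. At both probes controls 2 and 3 were the 2 highest arrays and knockout 3 and control 1 the 2 lowest, an 8.78-fold and a 12.4-fold range. The differences were -1.19 (SE 1.02, 95% interval -3.72 to 1.34, limma adjusted p = 0.499, the marked spot of knockout 1 left out) and -1.17 (SE 0.94, 95% interval -3.43 to 1.08, limma adjusted p = 0.463). Without control 1 these became -2.08 and -2.17, with adjusted p of 0.133 and 0.0975 in limma, and H2-Oa went to -1.38 (0.189), and without knockout 2 H2-Oa was -1.11 and A_51_P254625 -1.65. Leaving out control 2, control 3 or knockout 3 moved them towards 0. Without knockout 3 H2-Oa was -0.03 and H2-Ob (A_51_P254625) -0.52, and without control 2 they were -0.13 and -0.60, with -0.74 for A_66_P130916; without control 3 they were -0.17, -0.75 and -0.75. H2-Oa minus H2-Ob varied by 0.77, far less than H2-Oa (2.50) or H2-Ob (3.13) alone, with means of -0.64 ± 0.12 and -0.20 ± 0.37 (SD, n = 3 each, exact permutation p = 0.2).

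Ciita, the switch of the whole set, was also split within genotypes. Its brighter probe (A_66_P119948) read 0.72, 1.95 and 1.95 in controls and 2.15, 1.95 and 0.96 in knockouts. Its dimmer probe (A_55_P2741198) read -2.75, -0.48 and -0.30 in controls and -0.75, -0.67 and -2.68 in knockouts. Both probes put control 1 and knockout 3 well below the other 4 animals, and the dimmer probe had the larger range, 5.49-fold against 2.69-fold. The differences were 0.14 (SE 0.45, 95% interval -0.92 to 1.21, limma adjusted p = 0.863) and -0.19 (SE 0.81, 95% interval -2.12 to 1.74, limma adjusted p = 0.902). The 2 probes carry the same accession, and which transcripts each detects was not examined.

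**Figure D2:**
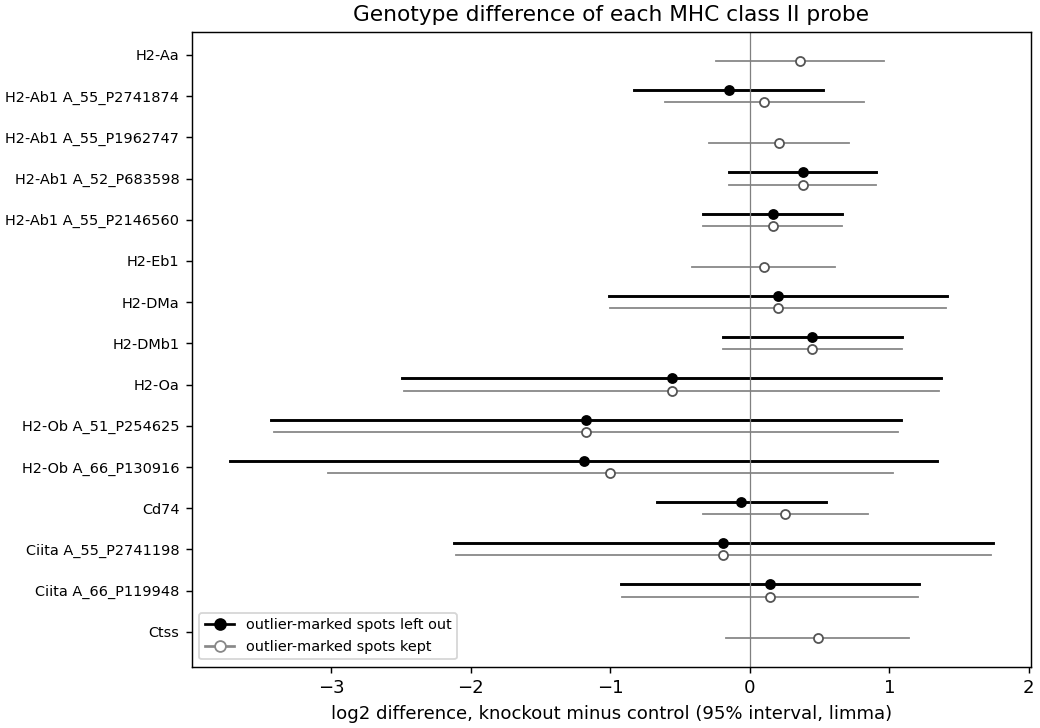
Difference of each class II probe, knockout minus control on the log2 scale (horizontal axis), with its 95% interval from limma; filled circles leave marked spots out and open circles keep them. Every interval crosses 0, the H2-Ab1 interval (A_52_P683598) reaching from -0.15 to 0.90 and the H2-Ob interval (A_66_P130916) from -3.72 to 1.34.

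Each probe's interval gives the differences its own values allow. For H2-Eb1 these ran from -0.41 to 0.61 and for H2-Ab1 (A_52_P683598) from -0.15 to 0.90. For H2-Oa, H2-Ob, H2-DMa and Ciita a change of 2-fold in either direction lay inside the interval for all but the lower side of the brighter Ciita probe.

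The members differed in how much they varied between animals of the same genotype. The within-group SD was 0.27 for H2-Eb1, 0.28 for H2-Ab1 (A_52_P683598), 0.33 for Cd74 and 0.34 for H2-Aa, close to the median of 0.27 over 40172 tested probes. It was 0.37 for H2-DMb1 and 0.38 for Ctss. It rose to 0.68 for Ciita (A_66_P119948) and 0.77 for H2-DMa, and to 1.26 for H2-Oa and the dimmer Ciita probe, 1.34 for H2-Ob (A_66_P130916) and 1.48 for its other probe. The H2-Oa SD was larger than that of 98.7% of tested probes, the H2-Ob SDs than 98.9% and 99.3%, and the H2-DMa SD than 93.7%.

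Brightness goes with spread over the array as a whole. Among the brightest 10% of tested probes the fold range over the 6 arrays had a median of 1.43 and a 90th percentile of 2.13, and among the others 1.90 and 4.99. H2-Oa at 5.65-fold and H2-Ob at 8.78-fold and 12.4-fold were above the 90th percentile of the dimmer probes. H2-Aa at 2.08-fold, H2-Ab1 (A_52_P683598) at 1.88-fold, Cd74 at 1.85-fold and H2-Eb1 at 1.5-fold belonged to the brightest 10%. They lay above the median of those probes and below their 90th percentile, so they were not narrow for their brightness. Ctss at 2.45-fold and H2-DMb1 at 2.42-fold also belonged to the brightest 10% and lay above its 90th percentile. The part of brightness in the difference between the members of the brightest 10% and the H2-O pair was not tested.

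The same animals were low across the set. Control 1 was the lowest array and knockout 3 the second lowest at the representing probes of H2-Aa, H2-Ab1, H2-Eb1, H2-DMa, H2-DMb1, H2-Oa, Cd74 and Ciita, and H2-Ob had these 2 in the opposite order. Ctss was the 1 member with other arrays at the bottom. The top differed: knockout 1 was highest for 7 members, knockout 2 for H2-Eb1 and control 2 for H2-Oa and H2-Ob. Knockout 1 thus stood at -0.21 for H2-Oa, below controls 2 and 3 and knockout 2, while being above them for H2-Aa, H2-Ab1, H2-DMa, H2-DMb1, Cd74 and Ciita.

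**Figure D3:**
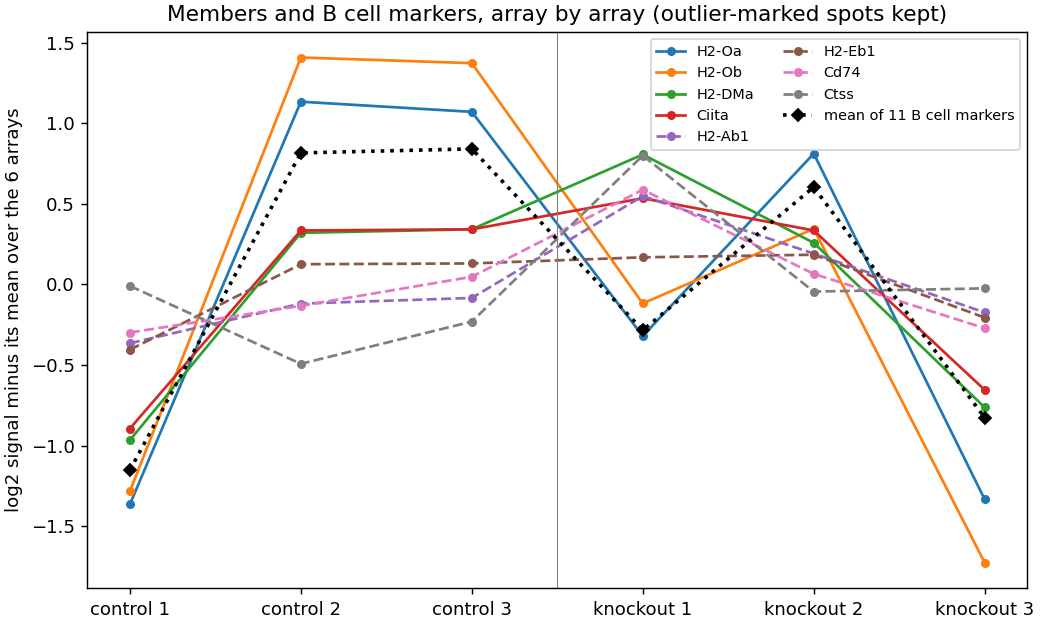
Log2 signal of 8 members and the mean of 11 B cell marker genes on each array, each minus its own mean over the 6 arrays (vertical axis), with marked spots kept; lines join the arrays only to guide the eye. H2-Oa, H2-Ob and the B cell markers are low in control 1 and knockout 3 and high in controls 2 and 3, while H2-Eb1 stays within a band of 0.59.

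Most B cell marker genes had the array order of the H2-O pair. All 11 B cell marker genes were well above background on all 6 arrays. Their mean was -1.10, 0.87 and 0.89 in controls and -0.23, 0.66 and -0.77 in knockouts, so control 1 and knockout 3 were again the lowest. Their summed signal, in multiples of each array's 75th percentile, ran from 12.95 to 32.33 in controls and from 16.39 to 28.96 in knockouts. Ms4a1, which encodes CD20, read -0.01, 1.98 and 2.02 in controls and 0.78, 1.66 and -0.24 in knockouts. Cd79a, a signalling chain of the B cell receptor, read -3.62, -0.72 and -1.10 in controls and -2.90, -1.38 and -3.79 in knockouts. Control 1 and knockout 3 were the 2 lowest arrays for 9 of the 11 genes, which ranged over 1.68 to 3.07. Cd22 and Blnk did not follow: Cd22 ranged over only 0.48, and Blnk read 1.65, 1.91 and 2.15 in controls and 2.57, 2.37 and 2.47 in knockouts. In bulk tissue fewer B cells and less RNA per B cell cannot be told apart.

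After the B cell marker mean was subtracted from H2-Oa, the 6 arrays lay at -0.16, 0.37 and 0.29 in controls and at 0.02, 0.26 and -0.45 in knockouts, a range of 0.82 in place of 2.50. H2-Ob treated in this way ranged over 1.49 in place of 3.13. The range narrowed a little for H2-DMa, from 1.77 to 1.59, and for Ciita (A_66_P119948), from 1.43 to 1.32. For the other 6 members it widened, from 0.91 to 1.77 for H2-Ab1 and from 0.89 to 1.82 for Cd74. The B cell marker mean itself ranged over 1.99. Subtracting it therefore had to widen members with small ranges, namely H2-Ab1 (0.91), Cd74 (0.89) and H2-Eb1 (0.59). The widening there follows from the subtraction and is no measure of a B cell part. These subtractions were chosen after the values were seen and carry no test. The part of B cell abundance in the H2-Oa and H2-Ob values was not tested.

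Other lymphoid and myeloid markers were set beside the members in the same way. The mean of 10 T cell markers was lowest in control 1 (-1.41) and knockout 3 (-1.34) and -0.82 to -0.47 elsewhere, with summed signals of 4.58 to 9.90 in controls and 4.58 to 9.31 in knockouts. The mean of the lymphoid follicle genes, all 7 above background, was also lowest in these 2 animals (-0.42 and -0.25). Their summed signals were 16.6 to 22.7 in controls and 17.3 to 24.3 in knockouts. Single genes of this list differed: Cxcr5 ranged over 2.45, but Cxcl13 over only 0.35 and Ccl21a over 0.22, and Ccl19 was lowest in control 3 (-0.80). Dendritic cell markers, 11 of 12 well above background on all arrays, had means of -2.31 to -1.99 in controls and -2.52 to -2.04 in knockouts. The lowest means were those of knockouts 3 and 1. Their summed signals were 7.21 to 8.30 and 6.53 to 8.33, sums in which the bright Irf8 probe weighs most. Single markers of this list ranged up to 5.22-fold (Irf4), with a median of 2.23-fold. Macrophage markers, 11 of 11, followed another order: control 1 had the highest mean (1.12) and the other 5 arrays -0.37 to 0.48, with summed signals of 18.5 to 28.9 in controls and 12.1 to 17.1 in knockouts. The parts of these cell types in the members' values were not tested.

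By genotype, the lists of the cells that carry class II gave few calls. Of 11 B cell markers tested, 1 was called lower, Fcrla (-1.95, limma adjusted p = 0.0486), and it was not with its 2 marked spots kept (-0.40, adjusted p = 0.804). The list median was -0.49, and -1.28 without control 1, -0.97 without knockout 2 and -0.10 to -0.13 without control 2, control 3 or knockout 3. Of 11 dendritic cell markers tested 0 were called, with a median of -0.12; Itgax, the CD11c gene, differed by 0.00 (SE 0.22) and Flt3, the receptor for a dendritic cell growth factor, by -0.33 (SE 0.32). Of 10 macrophage markers tested 0 were called although all 10 differences were negative, with a median of -0.76. At 7 of them the knockouts lay below all controls, marked spots kept, against 17.6% of probes over the array. With marked spots kept, 11 macrophage markers were tested, 10 lower and 1 higher, and 0 were called. Some macrophage markers were called in 4 alternative fits with all arrays. Cd68 differed by -0.88 (SE 0.27, limma adjusted p = 0.0983), Adgre1 by -0.96 (SE 0.27, 0.109) and Csf1r, the receptor for macrophage growth factor, by -0.37 (SE 0.21, 0.296). Cd3e, the T cell receptor chain, differed by -0.19 (SE 0.33, 0.742), and 0 of 9 T cell markers were called. All 7 plasma cell markers tested had negative differences, with a median of -0.89, and 2 were called lower. These were Tnfrsf17, a survival receptor of plasma cells, by -1.58 (SE 0.31, limma adjusted p = 0.0474) and Derl3, an endoplasmic reticulum quality control gene, by -1.42 (SE 0.21, 0.0306). Without control 2, control 3 or knockout 3 no plasma cell gene was called. Plasma cells are known to shut class II down as they form from B cells.

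Among the other cell types of the wall, the neutrophil list held most of the calls. All 8 tested epithelial markers were higher in the knockouts with 0 called (median 1.08, 0.53 without control 2 and 1.63 without knockout 3; Epcam, tested only with marked spots kept, 0.91, limma adjusted p = 0.146), and 6 of 8 neutrophil genes were called lower. Those were S100a8 (-3.92), S100a9 (-3.73), Cxcr2 (-1.93), Retnlg (-4.47), Mmp8 (-3.85) and Mmp9 (-2.86). The other 2 genes, Csf3r and Trem1, were higher by 0.17 and 0.18 and were not called. Over the whole array 2.42% of tested probes were called lower. Neutrophil calls fell to 0 without control 2 and to 1 without control 3 or knockout 3. Group 3 innate lymphoid cells can also carry class II, and Il1r1, a gene of their list, was called lower only with marked spots kept (-2.29, limma adjusted p = 0.0441). Of the 3 genes of that list testable in the main fit 0 were called at their brightest probe.

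**Figure D4:**
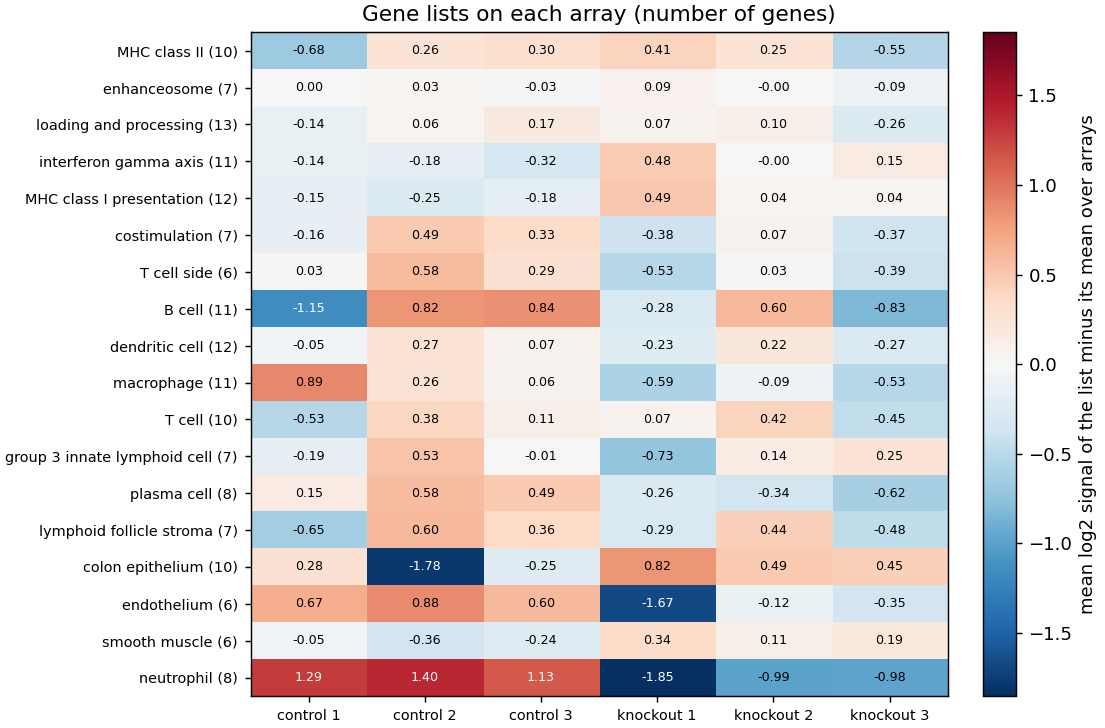
Mean log2 signal of each gene list on each array minus the list's mean over the 6 arrays (colour and printed value), marked spots kept, with the number of genes in parentheses. The class II list is low in control 1 (-0.68) and knockout 3 (-0.55), as the B cell list is (-1.15 and -0.83). The mean of the neutrophil list, though not every gene in it, splits by genotype.

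Of 7 enhanceosome genes, which encode the factors that sit on the upstream module, 0 were called, with a median difference of -0.19. At the probes of the main fit, read with marked spots kept, the genotypes did not overlap at 5 of the genes, 2 higher and 3 lower. At the probes that stand for the genes when marked spots enter the fit, 2 were higher and 2 lower. Over the array 34.9% of probes did not overlap. With arrays weighted 2 were called. Among the subunits of the RFX complex, Rfx5 was lower by -0.53 (SE 0.17, limma adjusted p = 0.104), Rfxank was higher by 0.74 (SE 0.21, 0.0972, knockout 1 left out) and Rfxap differed by 0.11 (SE 0.17, 0.711). Rfxank ranged over 1.57 on the 6 arrays and Rfx5 over 0.85.

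The interferon gamma pathway, which induces Ciita, and the class I pathway, which Nlrc5 drives through a similar module, were tested as partners. Of 9 interferon gamma pathway genes tested 0 were called and all 9 differences were positive, with a median of 0.46. With marked spots kept, 11 were tested, 9 higher and 2 lower. At 6 of the 9 the knockouts lay above all controls, marked spots kept, against 17.3% of probes over the array. Ifng differed by 0.39 (SE 0.29, limma adjusted p = 0.439) and Irf1 by 0.85 (SE 0.23, 0.0803). Of 9 class I genes tested 0 were called and all 9 were positive, with a median of 0.36. At 6 of them the knockouts lay above all controls, beside the same 17.3% over the array. H2-K1, a class I heavy chain, differed by 0.29 (SE 0.16, 0.296), B2m, the light chain, by 0.09 (SE 0.20, 0.805), Tap1, a peptide transporter subunit, by 0.31 (SE 0.27, 0.511) and Nlrc5 by 0.35 (SE 0.24, 0.391). With arrays weighted by limma 5 interferon pathway and 2 class I genes were called, and 1 and 2 with a variance trend and robust prior. Neither list had a call in the main fit, while the class II members had 0 of 15 probes without overlap; the difference between class I and class II was not tested. H2-K1 and Tap1 were each read here by a probe other than their brightest, which had too few unmarked spots.

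Of 11 loading and processing genes tested 0 were called, with a median of 0.03 that turned to -0.13 under quantile normalization. The second H2-DM beta gene, H2-DMb2, read -1.55, 1.15 and 1.24 in controls and -0.33, 1.02 and -0.92 in knockouts, low in control 1 and knockout 3 (difference -0.35, SE 0.85, limma adjusted p = 0.820). H2-DMb1 and H2-DMb2 are close relatives, and whether either probe also binds the other transcript was not examined; their profiles differed, knockout 1 being the highest array for H2-DMb1 and below controls 2 and 3 for H2-DMb2. Of 6 costimulatory genes and 5 T cell side genes (receptors that meet class II-bearing cells) tested 0 were called, all 11 differences being negative with medians of -0.52 and -0.81. At 2 T cell side genes the knockouts lay below all controls, marked spots kept, against 17.6% of probes over the array. With arrays weighted 3 genes of that list were called, and 1 with median centring. The costimulation median was -0.91 without control 1, -0.79 without knockout 2 and -0.29 without control 2.

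Likeness to the members was measured over the 6 arrays as the root-mean-square distance between centred log2 profiles, where small is alike. The mean profile of H2-Aa, H2-Ab1, H2-Eb1 and Cd74 has a root mean square of only 0.27 itself, so many genes lie near it. Among the 5 nearest were Nup50 (0.058), Arhgap8 (0.072), Helz2 (0.073) and Irf8 (0.078). For the mean profile of H2-Oa and H2-Ob, whose root mean square is 1.12, the 5 nearest included H2-Eb2 (0.149), Cd37 (0.179), Gm13012 (0.184) and Klhl14 (0.199), an anchor chosen after the values were seen. The H2-Eb2 probe had 3 of its 6 spots marked (control 2, knockouts 1 and 2), kept here, and was not tested in the main fit. H2-Eb2 is a further class II beta gene with an X and Y pair in its promoter, 33 bases apart, and Cd37 encodes a tetraspanin of B cells.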

How the data were processed

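Colon RNA of 3 control and 3 Islr knockout mice was hybridised to 1 array each. The deposited scanner files give the processed signal, an intensity on a linear scale after background subtraction and detrending in Agilent Feature Extraction (11.5.1.1 per the file headers, 10.7 per the submitters' processing notes). The labels name a Cy3 green signal, while the files hold the red channel, which was used. The authors' deposited value table holds the same intensities averaged per probe and served as an alternative.

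From these, log2 signals were computed relative to the array's 75th percentile of the deposited intensities. Control spots and spots with outlier marks were left out. Probes entered the test when every array of 1 group or both had them well above background and each group kept at least 2 usable values. Genotype was fitted with lmFit and eBayes (limma 3.58.1, R 4.3.3), two-sided, Benjamini-Hochberg adjusted over all 35351 tested probes at 0.05. The procedure was tested on simulated data. P-values cover the spread between these animals, and 6 arrays limit the precision. The probe with the highest mean among those tested stands for a gene in counts. Alternatives changed scaling, background correction, filters, outlier spots, array weights, variance prior, value source and the arrays used. Normexp used the spot median, the files used here having no spot mean.

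The members, lists and named genes were chosen with earlier results of these data known. Named were all members, Islr, 21 fixed genes of the partner and marker lists, listed genes past the threshold and the 5 genes nearest in profile; H2-DMb2, H2-Eb2, the B cell marker subtraction and the H2-Oa and H2-Ob neighbours were added after their values were seen. Some of these genes are not reported here. Replicate numbers are in accession order and pair nothing. Names came through RefSeq accessions (GRCm38.p6). Probe coordinates in the files are of mm9 and are not given.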

Additional observations from a re-analysis of the deposited data

How the results depend on the processing

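Under all 16 alternative fits 0 member probes were called; the smallest adjusted p was 0.0731 (H2-Ob, arrays weighted in limma). No paired analysis was possible because the labels carry no replicate numbers that the genotypes share. The number of probes called over the array moved from 1403 to 8119 with array weights, 2773 with normexp and quantile normalization, 2558 with normexp, 2274 with the authors' value table, 2249 with median centring, 2185 with quantile normalization and 484 without the filter, and to 40 to 2114 with 1 array left out (40 without knockout 3, 71 without control 2, 90 without control 3, 263 without knockout 1 and 2114 without control 1). The share of higher calls was 39.1% in the main fit, 50.7% with array weights, 51.1% with normexp and 35.0% to 44.1% in the other fits with all arrays except 33.7% without the filter; with 1 array left out it ran from 10% (without knockout 3) to 55.1% (without control 1). The members' median difference was 0.14, with -0.35 under array weights, -0.02 when a gene's probes were averaged and -0.23 to 0.53 with 1 array left out. Islr had no value without control 2 or control 3, ranged from -2.58 to -2.35 in the other 4 fits with 1 array left out and missed the threshold without knockout 3 (-2.39, limma adjusted p = 0.0580). Signs turned, none past the threshold, for H2-Ab1 (A_55_P2741874, 0.13 with the value table and 0.10 with marked spots kept; A_55_P2146560, -0.001 with quantile normalization and -0.009 to 0.31 with 1 array left out), Cd74 (0.28 and 0.26, as for the first), H2-DMa (-0.38 with array weights, -0.23 to 0.63 with 1 array left out) and Ciita (A_66_P119948, -0.35 with array weights and -0.27 to 0.51; A_55_P2741198, -0.98 to 0.47); the cause was not tested. With 3 arrays a group and 17 of 90 member spots marked, H2-Aa, H2-Eb1 and Ctss had no value in the fits that drop marked spots.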
